A study of Homo sapiens with 4 samples.

Results

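The 7 genes described here encode cell adhesion molecules of the immunoglobulin superfamily: ICAM1, ICAM3, ICAM4, ICAM5, VCAM1, ALCAM and L1CAM. Their accessibility was read at every peak that lies inside one of these genes or within 10 kb of either end, on the RefSeq gene table of GRCh38.p14. This gave 55 of the 190348 peaks in the table, of which 54 had enough counts to be tested. ICAM1, ICAM4, ICAM5 and ICAM3 lie beside each other on chromosome 19, and 6 peaks lie within 10 kb of several of them, so each peak was counted once. The cells were LM2, a human breast cancer line derived from MDA-MB-231 with a raised potential to colonise the lung. The sg1 group carried a deletion of CECR2, a bromodomain partner of the ISWI chromatin remodellers, made with guide sg1, and the control group carried a non-targeting guide. Both groups were grown in medium with puromycin and each had 2 ATAC-seq libraries of 50000 cells, a method in which the Tn5 transposase cuts and tags open DNA. The labels do not say whether the lines are clones or whether replicates are separate cultures, so a p-value here reflects variation among these 4 libraries only, and that variation may be technical.

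Adhesion molecules of this family carry immunoglobulin-like domains outside the cell and bind integrins on other cells, or bind each other. ICAM1 binds the integrins made of ITGAL or ITGAM with ITGB2 and lets leukocytes attach to endothelial, epithelial and tumour cells; VCAM1 binds the integrin of ITGA4 and ITGB1. Both are induced by inflammatory cytokines, and NF-kB, a family of transcription factors active in inflammation, acts at their promoters. ICAM3 is a leukocyte ICAM, ICAM4 a red cell antigen and ICAM5 a molecule of forebrain neurons. ALCAM binds CD6 and itself, and L1CAM guides axons, binds ankyrins inside the cell and is also found on many carcinomas.

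The promoter windows of ICAM1, VCAM1 and ICAM5 are shown because the peaks over those starts went in opposite directions in sg1. Each runs from 250 bases before to 50 after the annotated start and comes from RefSeq (GRCh38.p14), 5′ to 3′ on the plus strand, at chr19:10270870-10271169, chr1:100719492-100719791 and chr19:10289702-10290001. Capitals mark matches, on either strand, to GGNNNTTCC (a core of many NF-kB sites), TGANTCA (AP-1), TATAAA (the TATA box) or GGGCGG (the GC box).
ICAM1: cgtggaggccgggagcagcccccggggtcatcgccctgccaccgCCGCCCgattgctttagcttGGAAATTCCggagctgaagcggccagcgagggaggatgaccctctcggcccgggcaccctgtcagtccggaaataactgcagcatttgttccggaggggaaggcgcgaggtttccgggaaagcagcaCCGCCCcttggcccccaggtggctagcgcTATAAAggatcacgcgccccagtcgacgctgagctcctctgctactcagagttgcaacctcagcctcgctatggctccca
VCAM1: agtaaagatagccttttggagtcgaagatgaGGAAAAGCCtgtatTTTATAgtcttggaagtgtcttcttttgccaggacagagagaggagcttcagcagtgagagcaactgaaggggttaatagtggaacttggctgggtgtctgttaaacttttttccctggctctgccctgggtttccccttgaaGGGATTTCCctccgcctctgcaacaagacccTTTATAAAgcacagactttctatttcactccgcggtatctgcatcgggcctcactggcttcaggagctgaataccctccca
ICAM5: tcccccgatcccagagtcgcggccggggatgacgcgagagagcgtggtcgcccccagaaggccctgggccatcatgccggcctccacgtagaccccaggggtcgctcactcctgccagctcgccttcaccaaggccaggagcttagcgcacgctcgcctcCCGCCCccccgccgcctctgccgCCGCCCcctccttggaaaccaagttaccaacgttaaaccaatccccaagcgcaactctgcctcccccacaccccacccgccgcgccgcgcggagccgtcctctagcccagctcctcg
The ICAM1 window holds GGAAATTCC, beginning 186 bases before the start, TATAAA, beginning 30 bases before it, and 2 GC boxes in reverse orientation. The VCAM1 window holds GGGATTTCC, beginning 62 bases before the start, a reverse-strand match further upstream (GGAAAAGCC), and a TATAAA that overlaps 1 of its 2 reverse-strand matches. The ICAM5 window holds 2 GC boxes in reverse orientation and no match to the other 3 motifs. Over 35116 RefSeq promoter windows of this length, 20.1% hold the NF-kB core, 11.5% TATAAA, 45.0% the GC box and 7.71% the AP-1 motif. A match describes letters and not a bound site. The windows not printed differ from this contrast. An ICAM3 window, at 10334771 to 10335070 under a peak called higher, holds the NF-kB core (GGAAGGTCC). The ALCAM window, under a start peak called lower, holds a GC box and no match to the other 3 motifs. A link between motifs and direction was not tested.

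Levels are CPM, a library's counts scaled to a fixed total after TMM adjustment, and mean ± SD stands for n = 2 libraries in each group. A log2 fold change is sg1 over control, with its SE. After the start of chromosome 1 was left out, the sg1 libraries held 43519018 and 38924086 counts and the control libraries 21002477 and 15561701, so low peaks rest on few control counts. Accessibility at CECR2 gives no check of the deletion: its tallest peak had 412 and 445 counts in sg1 and 178 and 106 in the control (log2 fold change 0.39, adjusted p = 0.0430 in edgeR), and cuts outside an edited segment do not show editing. The mean chi-square per peak was 1.99 between the sg1 replicates and 1.98 between the control replicates, against 10.6 between sg1 replicate 1 and control replicate 1. Independent counts give a value near 1, and counting a fragment at both ends can raise it to 2. At peaks with 1000 or more counts in the pair it was 2.42 for sg1 and 2.46 for the control. All 6 markers of MDA-MB-231-like carcinoma cells had a peak within 1 kb of a gene end, with summed levels of 242 to 251 CPM in sg1 and 267 to 270 CPM in the control; the EGFR peak was higher and the FOSL1 peak lower. Of the endothelial markers only KDR and ROBO4 of 6 had such a peak, with none at CDH5, TEK, TIE1 or EMCN. Their summed level was 54.8 to 58.4 CPM in sg1 and 76.9 to 80.5 CPM in the control, and the ROBO4 peak was lower. The leukocyte markers PTPRC, CD3E, SPI1, LAPTM5 and CORO1A had a peak, with summed levels of 93.5 to 96.1 CPM in sg1 and 102 to 107 CPM in the control, and the CD3E and LAPTM5 peaks were lower. Of the luminal breast markers, 3 of 4 had one, ESR1 being without, with 21.1 to 22.5 CPM in sg1 and 15.1 to 19.3 CPM in the control, and the GATA3 peak was higher. The part of these shifts in the results below was not tested.

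Cells with the CECR2 deletion had less accessible chromatin at the starts of ICAM1, VCAM1 and ALCAM, and slightly more at the ICAM5 start and inside ICAM3; the VCAM1, ICAM5 and ICAM3 calls were lost under some alternatives given below. Over all 7 genes, 12 of the 54 tested peaks were lower and 8 higher in sg1 (edgeR's quasi-likelihood test, Benjamini-Hochberg adjustment, FDR of 0.05). That is 22.2% lower and 14.8% higher, against 16.8% and 11.5% of all 184717 tested peaks and 15.5% and 12.2% of peaks in or within 10 kb of a protein-coding gene. The median log2 fold change of the members was 0.12, against 0.02 over all tested peaks. DESeq2 called 8 members lower and 4 higher, against 10.4% lower and 4.93% higher of all peaks to which it gave an adjusted p. With TMM factors taken from gene-end peaks the split was 13 lower and 4 higher, and with upper quartile factors 11 lower and 12 higher. These scalings moved the log2 fold change of all peaks by -0.14 and 0.081 in the median, so the shares of all peaks can move too. Those shares are not given here, so these splits cannot be set against a background. Both sg1 libraries lay below both control libraries at 16 of the 55 peaks and above them at 22, where 30.2% and 33.4% of tested peaks in or within 10 kb of a protein-coding gene did so. Among the calls, 6 lower and 5 higher peaks differed by more than 2-fold. That is 11.1% and 9.26% of the members tested, against 8.87% and 4.96% of all tested peaks. Of the 5, those inside ICAM5 had enough counts to be tested only through sg1, so they could be called only higher.

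At the annotated starts, within 1 kb, 12 member peaks were tested. Lower calls numbered 6 and higher calls 1, and the median log2 fold change was -0.39. Among all 16515 tested peaks that close to the start of a protein-coding gene, 5.85% were lower and 23.0% higher, and the median was 0.17. The comparison is not like for like. The median length was 670 bases over all start peaks and 337 over the 12 member peaks. The median level over all start peaks was 8.98 CPM, and most of the 12 stood below it. Of the 6 lower start peaks, 3 belong to ICAM1, 2 to ALCAM and 1 to VCAM1, so they are not independent sites. Away from the starts, 6 of 42 were lower and 7 higher, around a median of 0.18. These are 14.3% and 16.7%, near the 15.5% and 12.2% of all tested peaks in or within 10 kb of a protein-coding gene.

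**Figure D1:**
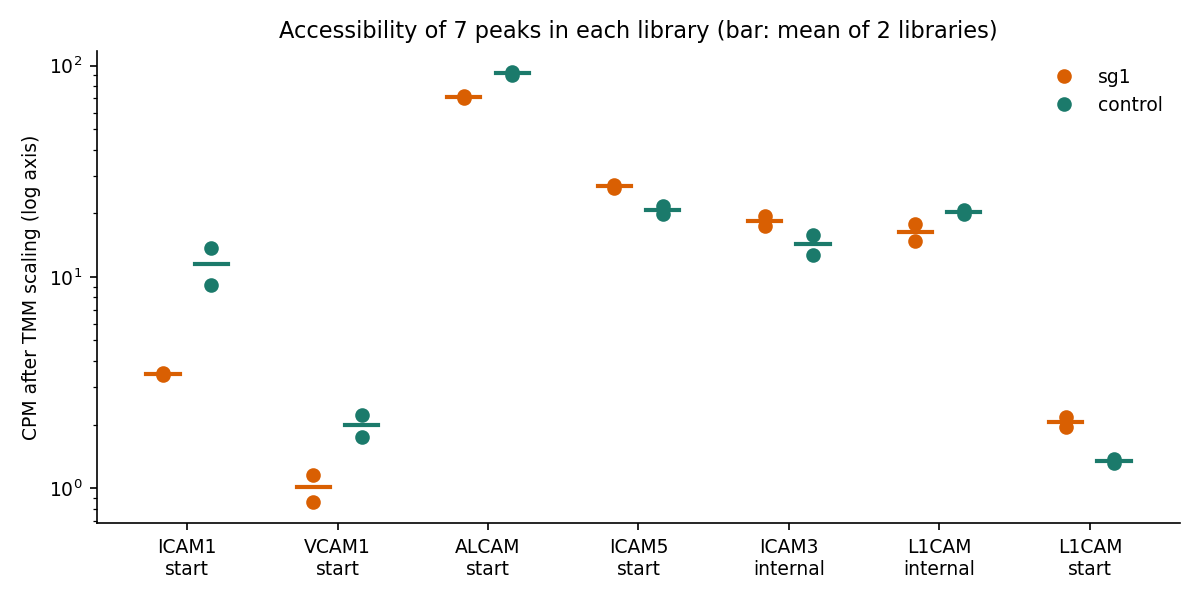
Accessibility of 7 peaks in CPM after TMM scaling (log axis) in each of the 2 sg1 (left of each pair) and 2 control libraries, with bars at the means. Both sg1 libraries lie below both control libraries at the ICAM1, VCAM1 and ALCAM starts and at the internal L1CAM peak. They lie above them at the ICAM5 and L1CAM starts and at the internal ICAM3 peak. The L1CAM start peak was not called. Of all tested peaks, 31.9% lie below and 31.8% above in this way.

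The 3 largest losses among the member peaks were all at ICAM1. The peak over its start, on chromosome 19 at 10270752 to 10271411, spans the whole promoter window printed above. It had 3.44 and 3.53 CPM in the sg1 libraries, against 13.8 and 9.20 CPM in the control libraries. The sg1 libraries were close to each other and far below both controls, which differed from each other by more than the sg1 libraries did. The means were 3.48 ± 0.0635 CPM in sg1 and 11.5 ± 3.23 CPM in the control, 3.34-fold lower in sg1. The log2 fold change was -1.74 with an SE of 0.17, and the adjusted p was 1.18e-09. Only 0.309% of the 16515 start peaks had a lower log2 fold change. The log2 fold change lay between -1.98 and -1.40 under all 11 alternatives run, with adjusted p of 2.33e-09 or less.

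The neighbours of that peak at ICAM1 were also lower. A small peak inside the gene, starting at 10271714, had 0.384 and 0.330 CPM in sg1 and 1.90 and 1.89 CPM in the control, a difference of 5.24-fold (log2 fold change -2.39, SE 0.39, adjusted p = 1.53e-05), and these levels rest on 17 and 13 counts in sg1 and 39 and 29 in the control. A peak 5.58 kb upstream, at 10265392 to 10265689 inside the long non-coding RNA gene LIMASI, had the largest loss of all 54 member peaks. It had 0.565 and 0.380 CPM in sg1 and 3.06 and 2.80 CPM in the control (log2 fold change -2.62, SE 0.33, adjusted p = 2.17e-07), a level 6.13 times lower in sg1. The peak at 10270325 to 10270679, just before the start, was lower by less, with 2.29 ± 0.152 CPM in sg1 and 3.96 ± 1.13 CPM in the control (log2 fold change -0.77, SE 0.24, adjusted p = 0.0146). Its call was lost with DESeq2 (adjusted p = 0.0919) and without either sg1 replicate or control replicate 2. The 2 peaks beyond it, starting at 10269845 and 10269500, had log2 fold changes of -0.58 and -0.39 and did not pass. LIMASI spans the ICAM1 start, so both genes share these peaks.

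No peak lay in the rest of the ICAM1 gene or at the ICAM4 start, whose promoter window overlapped none. The next peaks stand in the gap between ICAM4 and ICAM5, within 10 kb of all 3 genes. The tallest of these, at 10289052 to 10290311 over the ICAM5 start, had 27.3 and 26.5 CPM in sg1 and 21.7 and 19.9 CPM in the control. Both sg1 libraries lay above both controls by a modest step, 1.29-fold (log2 fold change 0.37, SE 0.09, adjusted p = 0.00152). Such a gain is common at gene starts: 73.5% of the 16515 start peaks had a lower log2 fold change, and 23.0% were called higher. With TMM factors from gene-end peaks the log2 fold change was 0.22 and the call was lost (adjusted p = 0.0505; 0.000140 to 0.0505 over the alternatives). The peaks beside it, starting at 10288684, 10290334 and 10291291, had log2 fold changes of 0.25, -0.33 and 0.13 and did not pass.

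Inside ICAM5 near its far end, 2 small peaks were higher. Both had enough counts to be tested only through their sg1 libraries, so the test could show only a gain there. The one at 10295309 to 10295460 had 35 and 36 counts in sg1 and 1 and 4 counts in the control, or 0.852 ± 0.0862 CPM and 0.155 ± 0.150 CPM (log2 fold change 2.56, SE 0.63, adjusted p = 0.00212). Its gain was the largest among the 54 member peaks. Without control replicate 1, the library with 1 count, the log2 fold change was 1.69 and the call was lost (adjusted p = 0.0619, against 0.000231 to 0.0619 over the alternatives). Its neighbour at 10295555 had 18 and 43 counts in sg1 and 5 and 4 in the control, and passed narrowly (log2 fold change 1.54, adjusted p = 0.0473). It was too low to test without sg1 replicate 2, and among the other 10 alternatives the call was lost under 5, among them DESeq2 (adjusted p = 0.252), the replicate block (adjusted p = 0.0614) and either control replicate left out. A peak beyond ICAM5, at 10303683 to 10304403, was lower, with 4.27 ± 0.736 CPM in sg1 and 7.38 ± 0.289 CPM in the control (log2 fold change -0.80, SE 0.18, adjusted p = 0.000743); without sg1 replicate 1 the adjusted p was 0.0570.

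A ratio of peaks within a library does not depend on scaling between libraries. In each library, the counts of the ICAM1 start peak divided by those of the ICAM5 start peak gave 0.126 and 0.133 in sg1 and 0.633 and 0.462 in the control. The ratio was lower in both sg1 libraries, which follows from the opposite calls of these peaks and is no separate support. Divided by the VCAM1 start peak, also called lower, the ICAM1 start peak gave 2.98 and 4.09 in sg1, and 7.86 and 4.15 in the control. With 2 libraries a group, the exact two-sided permutation test gave p = 0.333, the smallest this design allows.

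**Figure D2:**
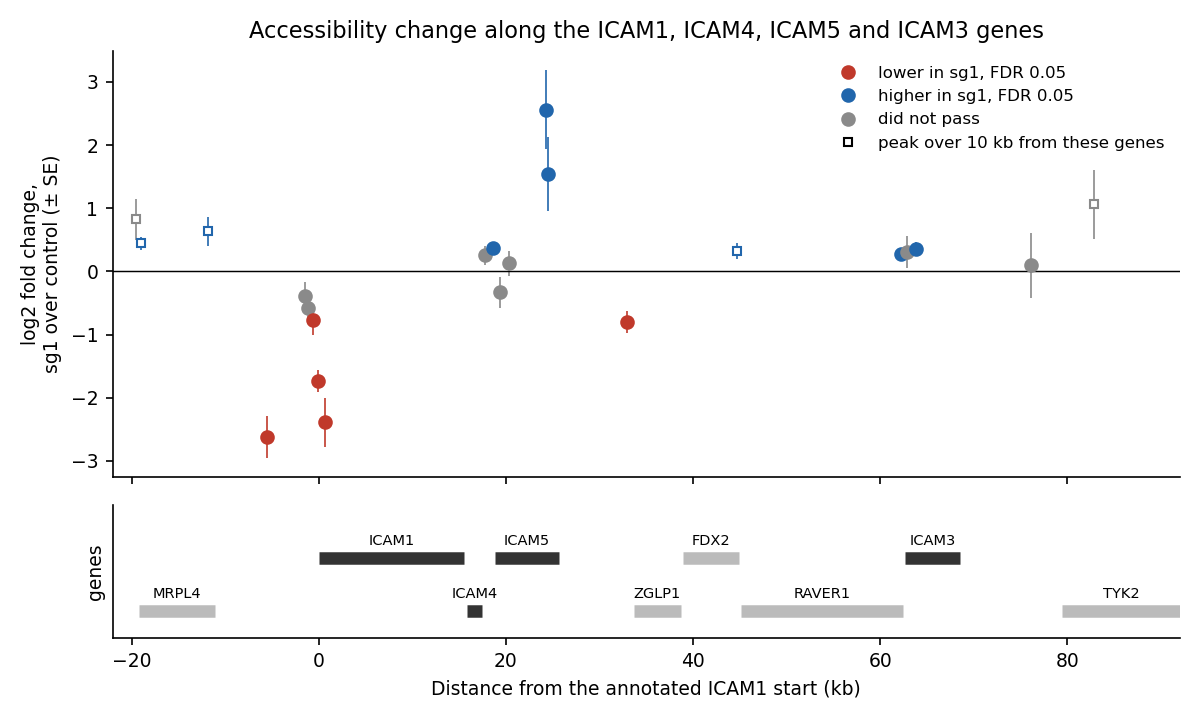
log2 fold change (sg1 over control, ± SE) of each tested peak against its distance in kb from the annotated ICAM1 start, with the protein-coding genes below (members in black). Among the members, the red points, lower in sg1, lie at the ICAM1 start, 5.58 kb upstream of it and at 1 peak beyond ICAM5. The called peaks inside ICAM5 or over its start are higher, as are those inside ICAM3 or across its end.

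At ICAM3, which lies on the minus strand, no peak stood within 1 kb of the annotated gene start. Its tallest peak, at 10332833 to 10333813, lies mostly outside ICAM3, whose end is at 10333776, and also overlaps RAVER1. The genes cannot be told apart there. It had 24.8 and 26.8 CPM in sg1 and 21.2 and 21.7 CPM in the control (log2 fold change 0.27, SE 0.09, adjusted p = 0.0187). Within the gene, the peak at 10334548 to 10335242, which covers another RefSeq promoter window of ICAM3, had 17.4 and 19.5 CPM in sg1 and 15.8 and 12.7 CPM in the control (log2 fold change 0.35, SE 0.11, adjusted p = 0.0123). Both gains were small and each was lost under 4 of 11 alternatives: DESeq2 (adjusted p = 0.101 and 0.0800), the gene-end TMM factors (adjusted p = 0.303 and 0.140), sg1 replicate 2 left out (adjusted p = 0.205 and 0.168), and control replicate 1 for the first (adjusted p = 0.0623) or control replicate 2 for the second (adjusted p = 0.144). The other 2 ICAM3 peaks did not pass, with log2 fold changes of 0.31 and 0.10.

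VCAM1, on chromosome 1, had 8 tested peaks, of which 1 was lower and 1 higher. The peak at its start, at 100719498 to 100719857, covers 294 of the 300 bases of the promoter window printed above and was low in every library. It had 51 and 34 counts in sg1, or 1.15 and 0.862 CPM, against 36 and 34 counts, or 1.75 and 2.22 CPM, in the control. The groups did not overlap, and the level was 1.94-fold lower in sg1, with a log2 fold change of -0.95 (SE 0.32, adjusted p = 0.0231). DESeq2 did not make this call (adjusted p = 0.150), nor did edgeR without control replicate 2 (0.103), sg1 replicate 1 (0.0507) or sg1 replicate 2 (0.225); the log2 fold change lay between -1.17 and -0.75 throughout. Among all start peaks, 1.40% had a lower log2 fold change, but only 16.9% had a lower mean level, so most of them rest on more counts.

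At the tallest VCAM1 peak no difference was detected. It lies 6.57 kb upstream, at 100712780 to 100713563, and had 10.9 and 10.1 CPM in sg1 and 9.87 and 11.3 CPM in the control. The groups overlapped and the log2 fold change was -0.01 (SE 0.13, adjusted p = 0.980). Towards the end of the gene a peak at 100736857 to 100737097 was higher, with 1.11 and 1.09 CPM in sg1 and 0.438 and 0.457 CPM in the control, which rest on 9 and 7 counts (log2 fold change 1.29, SE 0.44, adjusted p = 0.0239). That call too was absent from DESeq2 (adjusted p = 0.187) and from the fits without control replicate 1 (0.0922), sg1 replicate 1 (0.130) or sg1 replicate 2 (0.114). A further peak inside the gene, starting at 100721326, had a log2 fold change of 1.56 and narrowly missed the threshold (adjusted p = 0.0503). It had 31 and 18 counts in sg1 and 4 and 3 in the control. Only its sg1 counts were high enough for it to be tested, and DESeq2 gave it no adjusted p. Within each library the start peak held 0.106 and 0.0856 times the counts of the tallest upstream peak in sg1, and 0.177 and 0.197 times in the control. These ratios follow from the changes of the same peaks given above and are no separate support.

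**Figure D3:**
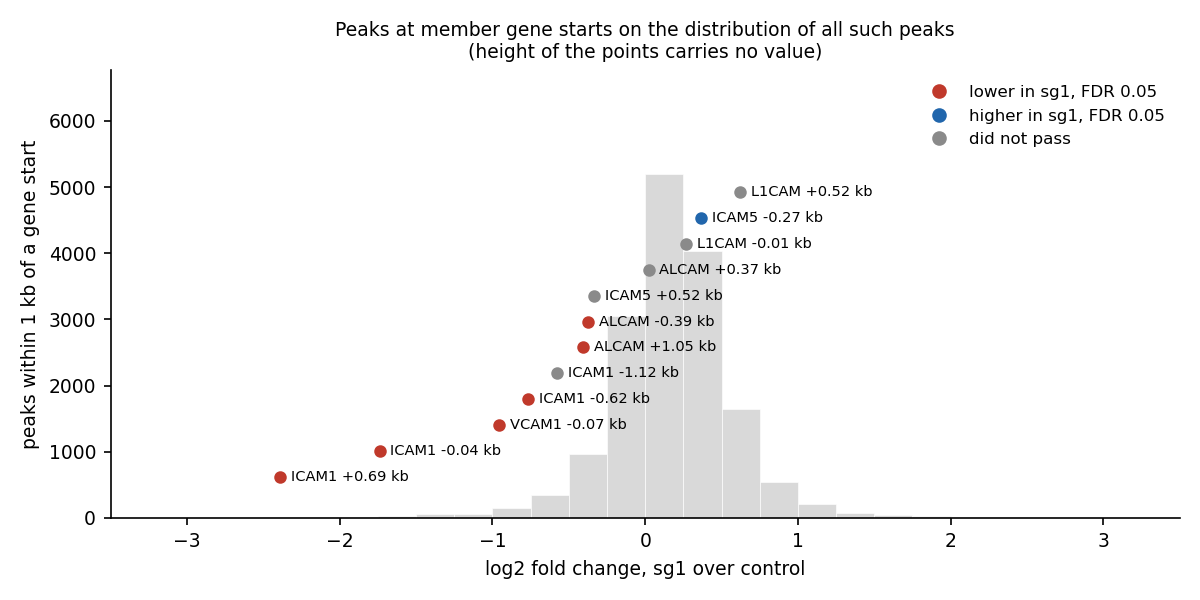
Distribution of log2 fold changes (sg1 over control) of all 16515 tested peaks within 1 kb of the start of a protein-coding gene, as grey bars, with the 12 peaks at member starts as points labelled by gene and distance from the start. The ICAM1 and VCAM1 points lie in the left tail, the ICAM5 points on either side of 0 and both L1CAM points right of it; 2 of the 3 ALCAM points lie left of 0.

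ALCAM, on chromosome 3, had the start peak with the highest level among the members. The peak at 105366054 to 105366995 had 70.4 and 71.8 CPM in sg1 and 93.2 and 90.9 CPM in the control, and 99.8% of all start peaks had a lower mean level. Replicates were close and the groups well apart, so a 1.29-fold loss passed (log2 fold change -0.37, SE 0.06, adjusted p = 4.24e-06), and it did so under all 11 alternatives. A second start peak, at 105367702 to 105368210, was lower to a like degree, with 12.3 ± 0.214 CPM in sg1 and 16.4 ± 0.463 CPM in the control (log2 fold change -0.41, SE 0.11, adjusted p = 0.00374); without sg1 replicate 2 it was not called. Between them a small peak at 105367201 did not pass, at 3.51 ± 0.373 CPM in sg1 and 3.47 ± 0.165 CPM in the control.

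Peaks along the long ALCAM gene changed in both directions. The peak at 105359419, 7.33 kb upstream, was lower, with 1.56 and 1.75 CPM in sg1 and 4.08 and 2.94 CPM in the control (log2 fold change -1.10, SE 0.25, adjusted p = 0.00114). The peak at 105394204, 27.46 kb into the gene, was lower as well, with 1.20 and 1.24 CPM in sg1 and 2.82 and 2.48 CPM in the control (log2 fold change -1.12, SE 0.28, adjusted p = 0.00257). The peak at 105409415, 42.64 kb in, had a similar loss (log2 fold change -1.13, adjusted p = 0.0239), not called by DESeq2 (adjusted p = 0.166) or without control replicate 1 or either sg1 replicate. Far into the gene 2 peaks were higher. The one at 105538553 to 105538938, 171.84 kb from the start, had 1.65 and 1.62 CPM in sg1 and 0.535 and 0.261 CPM in the control, from 73 and 64 counts against 11 and 4 (log2 fold change 1.97, SE 0.41, adjusted p = 0.000404). The one at 105533927 had 1.94 and 2.31 CPM in sg1 and 0.535 and 1.17 CPM in the control (log2 fold change 1.37, SE 0.35, adjusted p = 0.00293); without control replicate 1 it stood at 0.85 and was not called (adjusted p = 0.0995). Split at 50 kb from the start, a point chosen after the values were seen, the first part held 5 lower and 0 higher of 10 peaks and the second 0 lower and 2 higher of 12. Of all tested peaks, 16.8% were lower and 11.5% higher. The counts are too small to set a pattern along the gene against that background, and none was tested. The largest peak inside the gene, at 105401640 to 105402938, did not pass, with 17.1 ± 0.600 CPM in sg1 and 15.3 ± 2.71 CPM in the control.

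**Figure D4:**
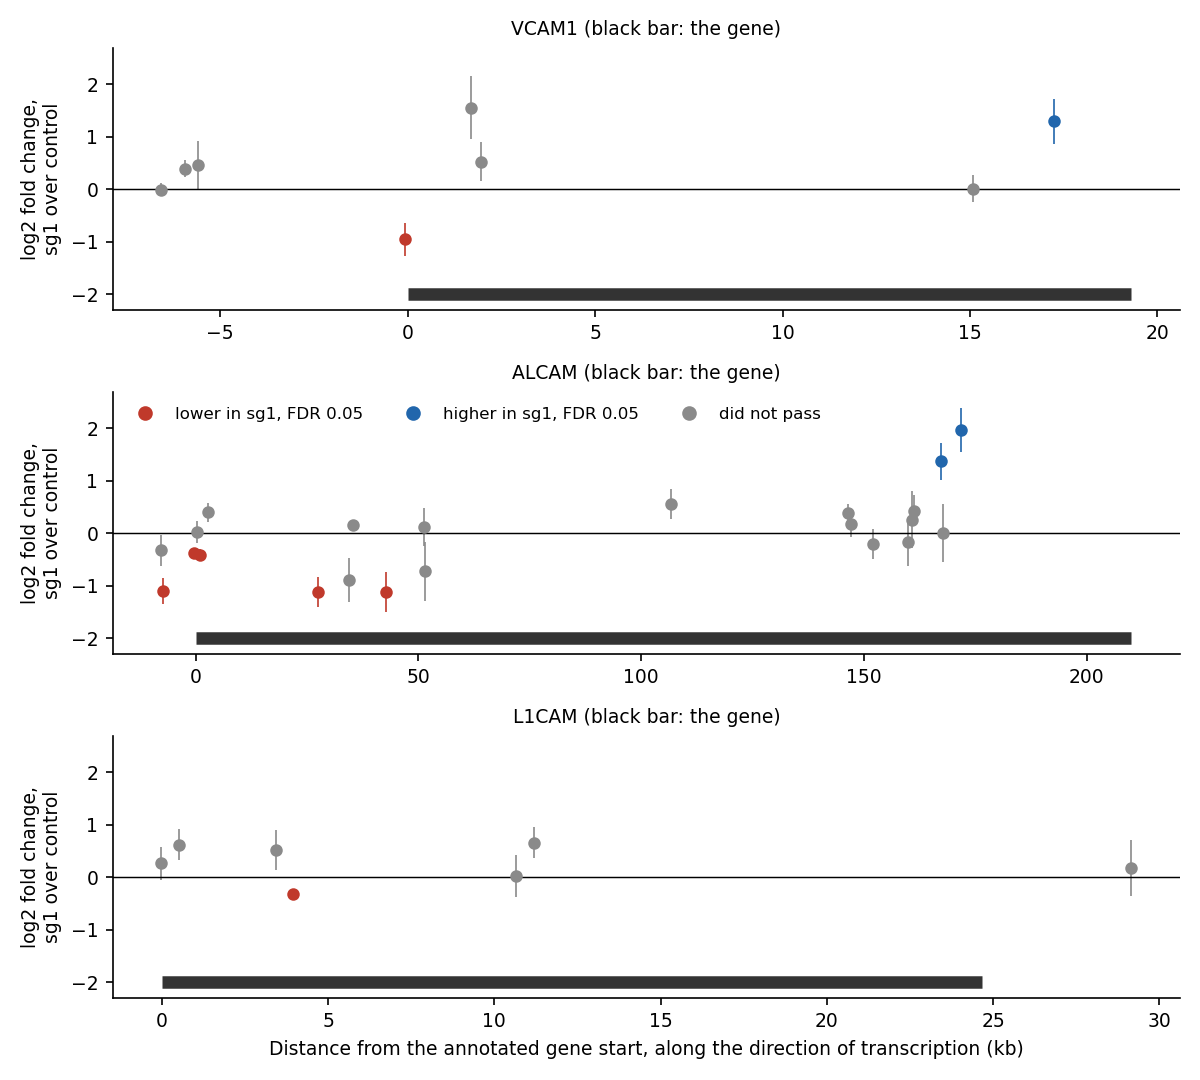
log2 fold change (sg1 over control, ± SE) of each tested peak of VCAM1, ALCAM and L1CAM against its distance in kb from the annotated gene start, read in the direction of transcription. VCAM1 has 1 lower peak, at its start, and L1CAM has 1 inside the gene. The 5 lower ALCAM peaks lie within 50 kb of the start and the 2 higher ones at 167.25 and 171.84 kb. The 50 kb mark was chosen after the values were seen.

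L1CAM lies on chromosome X. Of its 8 peaks, 7 were tested and 1 was lower: its tallest, at 153881916 to 153882572, inside both L1CAM and its antisense gene L1CAM-AS1. That peak had 14.8 and 17.8 CPM in sg1 and 19.8 and 20.7 CPM in the control (log2 fold change -0.32, SE 0.10, adjusted p = 0.0169). The call was lost with DESeq2 (adjusted p = 0.119), with upper quartile factors (adjusted p = 0.0736) and without sg1 replicate 1 (log2 fold change -0.17, adjusted p = 0.417). At the annotated start, 2 small peaks had 2.06 ± 0.168 and 1.70 ± 0.358 CPM in sg1 and 1.34 ± 0.0404 and 1.37 ± 0.465 CPM in the control. Their log2 fold changes of 0.62 and 0.27 did not pass (adjusted p = 0.117 and 0.567). The RefSeq promoter windows of L1CAM, at 153875895 to 153876194 and 153875965 to 153876264, lie elsewhere, inside the gene, and no peak overlaps them. The peak left untested, at 153875218 to 153875368, had 11 and 22 counts in sg1 and 1 and 0 in the control.

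The order of the member starts differed between the groups when levels were set per kb of peak. In sg1 the order was ALCAM at 75.5 ± 1.07 CPM per kb, ICAM5 at 21.4 ± 0.476, L1CAM at 10.5 ± 0.856, ICAM1 at 5.27 ± 0.0963 and VCAM1 at 2.80 ± 0.570. In the control it was ALCAM at 97.7 ± 1.72 CPM per kb, ICAM1 at 17.4 ± 4.89, ICAM5 at 16.5 ± 1.03, L1CAM at 6.84 ± 0.206 and VCAM1 at 5.51 ± 0.918. In the control, ICAM1 and ICAM5 were closer than the spread of ICAM1, while other neighbours in either order lay further apart than their SDs. Summed over the 12 peaks within 10 kb of ICAM1, which include those at ICAM5, levels were 55.7 and 55.4 CPM in sg1 and 62.8 and 62.9 CPM in the control. The VCAM1 sums, 25.8 and 23.0 CPM in sg1 and 21.1 and 23.4 CPM in the control, overlapped.

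The genes whose tallest gene-end peak was most like a member's were found by the mean absolute difference of log2 CPM over the 4 libraries. For the tallest peak near ICAM1, which is the ICAM5 start peak, they were MTCH2, ETNK1 and USP42, all within 0.0216 log2 units on average. For the tallest VCAM1 peak they were PDHA1, ABLIM3 and PRRG1, with differences of 0.0216 to 0.0408. For the ICAM1 start peak, chosen after its values were seen, the nearest were COL6A2 at 0.128, then LOC124903319 and ALOX5AP at 0.249 and 0.260. COL6A2 had 3.73 and 3.63 CPM in sg1 and 10.5 and 9.20 CPM in the control.

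Gene lists of partners and relatives are read against the same 16.8% lower and 11.5% higher of all tested peaks. Among 8 receptor genes, 10 of 53 tested peaks within 10 kb were lower and 4 higher, 18.9% and 7.55%, near that background, with a median log2 fold change of 0.09. ITGAM, an integrin chain that binds ICAM1 on myeloid cells, had 6.60 ± 0.249 CPM in sg1 and 26.5 ± 3.58 CPM in the control at its most strongly changed peak (log2 fold change -2.02, SE 0.11, adjusted p = 6.93e-16). CD6, a T cell surface receptor for ALCAM, had 4 lower of 9 peaks, led by one at 2.83 ± 0.378 CPM in sg1 and 9.11 ± 1.90 CPM in the control (log2 fold change -1.70, adjusted p = 9.65e-09). ITGB2, the shared chain of the leukocyte integrins, had 3 lower and 1 higher of 16 (log2 fold change -0.78 at the peak with the smallest p). ITGAL, another integrin chain that binds ICAM1, had 0 lower and 1 higher of 4, at 27.4 ± 0.185 CPM in sg1 and 21.3 ± 0.611 CPM in the control (log2 fold change 0.37, SE 0.08, adjusted p = 0.00118). ITGB7, which pairs with ITGA4, had 0 lower and 1 higher of 7 (log2 fold change 0.33, adjusted p = 0.00156), and ITGB1 had 2 lower and 1 higher of 11. At ITGA4, a chain of the VCAM1 receptor, the only tested peak did not pass.

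Cytoskeletal anchors had 56 lower and 20 higher of 226 tested peaks, 24.8% and 8.85%, with a median of -0.10. MSN, which encodes moesin, a protein that ties ICAM tails to actin, accounted for 23 of the lower peaks, out of 27 tested there. Its peak with the smallest p had 15.5 ± 0.702 CPM in sg1 and 49.4 ± 1.75 CPM in the control (log2 fold change -1.68, SE 0.08, adjusted p = 9.60e-18). The ankyrin genes ANK2 and ANK1 had 10 lower and 5 higher of 61, and 6 lower and 5 higher of 35. ANK3 had 12 lower and 7 higher of 73, RDX 3 lower and 2 higher of 20, and EZR 2 lower and 1 higher of 10. Selectins and their ligands had 14 lower and 3 higher of 46, 30.4% and 6.52%, with a median of -0.16. Within that list SELPLG, the leukocyte ligand of the selectins, had 6 lower and 1 higher of 14, and CD44, a hyaluronan receptor, 8 lower and 0 higher of 27. Both peaks of the endothelial selectin gene SELE were higher, led by one at 2.34 ± 0.0122 CPM in sg1 and 1.23 ± 0.0169 CPM in the control (log2 fold change 0.93, adjusted p = 0.0156).

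The other 23 adhesion genes of this kind had 45 lower and 32 higher of 245 tested peaks, 18.4% and 13.1%, near the background of all tested peaks, with a median of 0.03. PVR, a nectin-like receptor on tumour cells, had 1 lower and 1 higher of 9, and the lower one was at 0.691 ± 0.0451 CPM in sg1 and 7.18 ± 0.842 CPM in the control (log2 fold change -3.37, SE 0.25, adjusted p = 1.09e-12), a larger loss than at any of the 54 member peaks. NCAM1, the neural cell adhesion molecule, had 7 lower and 0 higher of 14, with 9.05 ± 0.599 CPM in sg1 and 23.1 ± 0.588 CPM in the control at the peak with the smallest p. MCAM, a melanoma adhesion molecule, had 1 lower of 6, at 33.0 ± 0.858 CPM in sg1 and 56.1 ± 2.49 CPM in the control (log2 fold change -0.77, adjusted p = 1.22e-10).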

How the data were processed

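The authors deposited raw counts for 190348 peaks. Per the file headers, featureCounts 1.6.0 counted single ends in cut-site alignments, so both ends of a fragment can count. The submitters' processing notes name deepTools 3.1.3, DESeq2 1.32, MACS2 2.2.4, SAMtools, Bowtie2, Trimmomatic 0.39 and CASAVA without roles; for the genome build, none is given in the sources used here. A peak overlapped 52.8% of 35116 RefSeq promoter windows of GRCh38.p14, against 6.09% and 5.97% with windows shifted by 100 kb either way, so that gene table was used. Positions are as the deposited table lists them; exon structure was not used here.

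The 109 peaks that lie within 250 kb of the start of chromosome 1, which held 17.9% to 25.4% of counts, were left out. The other peaks, filtered with filterByExpr and scaled by TMM, were tested together by group with the quasi-likelihood F test of edgeR 4.0.16 (R 4.3.3), at a Benjamini-Hochberg FDR of 0.05. The SE is the log2 fold change divided by the square root of F. The test was also run on simulated counts drawn with the same dispersion (0.0066), a measure of spread between libraries, for every peak. Real peaks can differ in spread, so that run does not show the error rate in these data. DESeq2 1.42.0 was an alternative, as were other scalings, filters, windows and thresholds, each library left out, and a replicate block. Ratios of peaks within a library used an exact permutation test in scipy 1.17.1. Likeness used log2(CPM + 0.5).

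The members, lists and tests were chosen with earlier results of these data known. Named for each member were its tallest peak, the tallest at its start, and up to 3 called peaks per direction with the smallest p; for each list, up to 3 genes with the smallest p. Other peaks and list genes complete a locus, a list or a small count and were chosen after their values were seen. Replicate pairs had a mean chi-square per peak near 2 and were kept as separate libraries. One leukocyte marker is not reported here.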

Additional observations from a re-analysis of the deposited data

How the results depend on the processing

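Of the 17 named peaks that were called, 7 kept their direction and call under all alternatives run: the ICAM1 start peak, the ICAM1 peaks at 10265392 and 10271714, the ALCAM start peak, and the ALCAM peaks at 105359419, 105394204 and 105538553. The count of higher member peaks was 8, and 4 with DESeq2, with TMM factors from gene-end peaks or at an FDR of 0.01. Leaving out 1 library gave 4 to 8 higher (4 without sg1 replicate 2, 5 without control replicate 1) and 7 to 12 lower (7 without sg1 replicate 1, 8 without sg1 replicate 2), against 12 lower. Gene-end TMM factors moved the log2 fold change of all peaks by -0.14 in the median, so small gains such as those of ICAM5 and ICAM3 are read relative to that shift. The log2 fold change of the tallest VCAM1 peak, -0.01, changed sign with library size only (0.042) and upper quartile factors (0.075), and with control replicate 2 or sg1 replicate 2 left out. It lay between -0.11 and 0.085 with 1 library left out (0.064 without sg1 replicate 2) and passed under none of these. With a replicate block 12 member peaks were lower and 7 higher. Apart from DESeq2, whose shares stand above, these counts under alternatives have no share of all tested peaks beside them. They do not show whether the members or all peaks moved. Deviations of same-numbered libraries had a correlation of -0.000258, so the numbers were not taken to pair them, and the block ended 1 call, at 10295555. The cause of these changes was not tested. Control libraries of 1 to 18 counts at the 5 small peaks called higher limit the precision of their fold changes.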
